A study of Mus musculus with 3 samples.

Results

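Lysosomal hydrolases and lysosomal membrane proteins were followed as mouse bone marrow macrophages became osteoclasts, which are large cells with many nuclei that dissolve bone. A fixed list of 35 genes for lysosomal enzymes, their helper proteins and membrane proteins, without the cathepsins, was matched by gene symbol to the probe sets of the array, and 34 were found, of 12393 genes in all. Arsb was not analysed here. The 34 genes had 66 probe sets among 20380 that name 1 gene, and each gene is given by its probe set with the highest mean log2 signal over the arrays. The study compared 3 cultures on 3 arrays, 1 per time. Bone marrow cells of the C57/BL6 strain were grown with human M-CSF at 50 ng/ml for 3 days, which yields macrophages, and human RANKL at 150 ng/ml was then given for 0, 24 or 72 h. The labels call the cells precursor at 0 h, differentiating precursor at 24 h and osteoclast at 72 h. Cultures given M-CSF alone for another 24 or 72 h are not part of the design, so an effect of RANKL and one of longer culture cannot be told apart.

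Lysosomes break down lipids, sugar chains and proteins with acid hydrolases, most of which reach them by a mannose phosphate tag added in the Golgi. Their membrane is lined by heavily glycosylated proteins such as LAMP1, LAMP2 and CD68, and it holds channels and carriers that let digestion products out. In osteoclasts the lysosomes also fuse with the plasma membrane facing bone, the ruffled border, where their enzymes are released and their membrane proteins become part of the resorbing surface.

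Signals are on a linear scale and come from the MAS5 software. The deposited arrays differed in overall brightness, with medians of 36.7, 60.9 and 62.7 at 0, 24 and 72 h, which is 0.73 (24 h) and 0.77 (72 h) above the 0 h array in log2 units. All signals and differences below are therefore taken relative to each array's own median over its gene probe sets. A signal of 29.6, the 40th percentile, served as a floor, and all 34 genes lay above it on all 3 arrays. A gene is called higher or lower from a 2-fold difference, which is 1 on the log2 scale. Each time had 1 array, so no replicate spread could be measured, no difference was tested, and the precision is limited by the number of arrays. As a technical error, the disagreement between different probe sets of a gene is used. In log2 units it amounted to 0.41 (24 h against 0 h), 0.49 (72 h against 0 h) and 0.36 (72 h against 24 h), or factors of 1.33, 1.41 and 1.28. How much separate cultures vary is not covered by it.

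Marker genes were set against the labelled cell types. Of 10 osteoclast markers 8 were on the array, and 8 of 8 were at least 2-fold higher at 72 h than at 0 h, with a summed signal of 1561 at 0 h, 6898 at 24 h and 31892 at 72 h. Of 14 macrophage markers 10 were lower at 72 h, and their sum went from 53199 to 30152 and 26022. On the deposited scale 8 of the 14 were lower at 72 h, and 4 lay above their 0 h signal. Neutrophil and granulocyte precursor markers were lower in 9 of 9 at 72 h, with sums of 18078, 12746 and 1317, and Mpo, Elane, Prtn3 and Ctsg were under the floor there. Megakaryocyte and platelet markers were lower in 5 of 5, with sums of 8824, 1719 and 800.3. Stromal and osteoblast markers were higher in 3 of 6 at 72 h against 0 h, with sums of 2068, 2252 and 6960.3. Granulocytes, macrophages and stromal cells also carry lysosomes, and the part of these cells in the lysosomal signals was not tested. In RNA from a whole culture, fewer cells of a type and less RNA per cell cannot be told apart. All of the T and NK cell markers on the array, 6 genes, were under the floor at each time.

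Several promoters of these genes carry a known lysosomal sequence element. The letters CACGTG form the E-box bound by the MiT family of transcription factors (MITF, TFEB, TFE3), and TCACGTG is the form common in lysosomal promoters. Promoter stretches of 300 bases, from 250 before to 50 after the annotated transcription start, were taken from RefSeq (GRCm38.p6) and were matched for 31 of the 34 genes. Both strands were searched, and since CACGTG reads the same on both, a match to TCACGTG on the other strand appears as CACGTGA. Since the longer form holds the shorter one, their matches overlap. A gene counts as a holder when any of its promoters has a match. TCACGTG occurred in 9 of the 31 genes, or 29.0%, against 6.10% of 9887 genes on the array that had a promoter. It was in 4.29% of all 27025 genes with such a promoter. Counted per promoter and not per gene, it was in 3.77% of all 32851 promoters of this length. The core CACGTG was found in the same 9 members and in 10.8% of the genes on the array. The stretches around the matches are shown to compare their letters between genes that went up and down. They are written 5′ to 3′ on the gene's strand, end at or before the base ahead of the transcription start, and have the motif in capitals.
Lamp1 (chr8:13159079-13159160, plus strand): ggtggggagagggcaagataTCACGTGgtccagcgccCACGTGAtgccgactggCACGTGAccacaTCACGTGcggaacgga
Mcoln1 (chr8:3500427-3500500, plus strand): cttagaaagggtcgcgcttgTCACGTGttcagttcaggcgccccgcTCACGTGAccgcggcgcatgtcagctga
Gla (chrX:134601173-134601253, minus strand): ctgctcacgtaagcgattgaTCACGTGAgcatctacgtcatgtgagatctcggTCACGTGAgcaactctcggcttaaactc
Glb1 (chr9:114401009-114401055, plus strand): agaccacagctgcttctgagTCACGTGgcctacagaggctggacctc
Naglu (chr11:101070000-101070046, plus strand): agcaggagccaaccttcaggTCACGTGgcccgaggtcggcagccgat
Sgsh (chr11:119355513-119355559, minus strand): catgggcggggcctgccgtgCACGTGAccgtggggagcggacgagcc
Gaa (chr11:119267802-119267848, plus strand): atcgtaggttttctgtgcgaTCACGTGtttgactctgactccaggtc
Lgmn (chr12:102439116-102439162, minus strand): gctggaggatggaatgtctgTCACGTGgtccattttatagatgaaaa
Arsa (chr15:89477425-89477461, minus strand): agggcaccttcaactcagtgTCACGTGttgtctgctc

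Lamp1 held 4 matches within the last 61 bases before its start, Mcoln1 and Gla 2 each, and the other 6 genes 1 each. For Lgmn, 1 of its 2 annotated promoters held the match. A match describes the letters and is not a measured binding site.

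Across the 34 genes, most signals were lowest after 24 h of RANKL and part of them were higher again at 72 h. The 24 h array was the lowest of the 3 for 24 genes, the 72 h array for 6 and the 0 h array for 4, while of 7164 genes above the floor on all arrays 20.2%, 39.7% and 40.1% had their lowest signal at those times. The highest signal was at 0 h in 21 genes, at 72 h in 12 and at 24 h in 1, against 31.3%, 27.6% and 41.1% of all genes. On the deposited scale, where the 0 h array is dimmer as a whole, 13 of 33 lysosomal genes were lowest at 24 h, against 7.72% of all genes. A dip at 24 h larger than the technical error on both sides was seen in 11 of 34, against 6.81% of all genes. By the probe sets used these were Hexa, Glb1, Gaa, Neu1, Naglu, Sgsh, Idua, Galns, Tpp1, Ppt1 and Mcoln1. Second probe sets above the floor on all arrays fell by less than 0.41 at 24 h in Gaa (-0.29), Idua (-0.30) and Mcoln1 (-0.32). Those of Tpp1 (-1.26) and Ppt1 (-2.15) fell by more. On the deposited scale only Sgsh (-0.91) and Idua (-0.42) of these 11 fell by more than 0.41 at 24 h. Glb1, Naglu and Galns were above their 0 h signal there (0.18, 0.06 and 0.19). The 72 h signal stood above both others by more than the technical error in 6 genes, Gla, Glb1, Gusb, Naglu, Smpd1 and Cd68, against 12.4% of all genes.

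Of the 34 genes, 11 were at least 2-fold lower at 24 h than at 0 h and 1 was higher, where 9.22% of 8439 measured genes were lower and 13.2% higher. The median log2 difference was -0.72 against 0.12 over all measured genes, and 0.01 against 0.78 on the deposited scale. Of the 11 lower genes, Lipa and Galc were also at least 2-fold lower on the deposited scale, and the other 9 were not. From 0 to 72 h, 7 were lower and 4 higher, against 12.8% and 12.5% of all genes, with a median of -0.21 against -0.01 (0.56 against 0.68 on the deposited scale). Lipa, Man2b1, Lgmn and Lamp2 are the lower genes at 72 h that were within 2-fold on the deposited scale. The differences ranged from -2.37 in Lamp1 to 2.49 in Smpd1. Between 24 and 72 h, 7 were higher and 2 lower, against 6.92% and 10.0% of all genes, with a median of 0.31 against -0.14. These 3 comparisons share arrays, so their counts are not independent of each other.

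**Figure D1:**
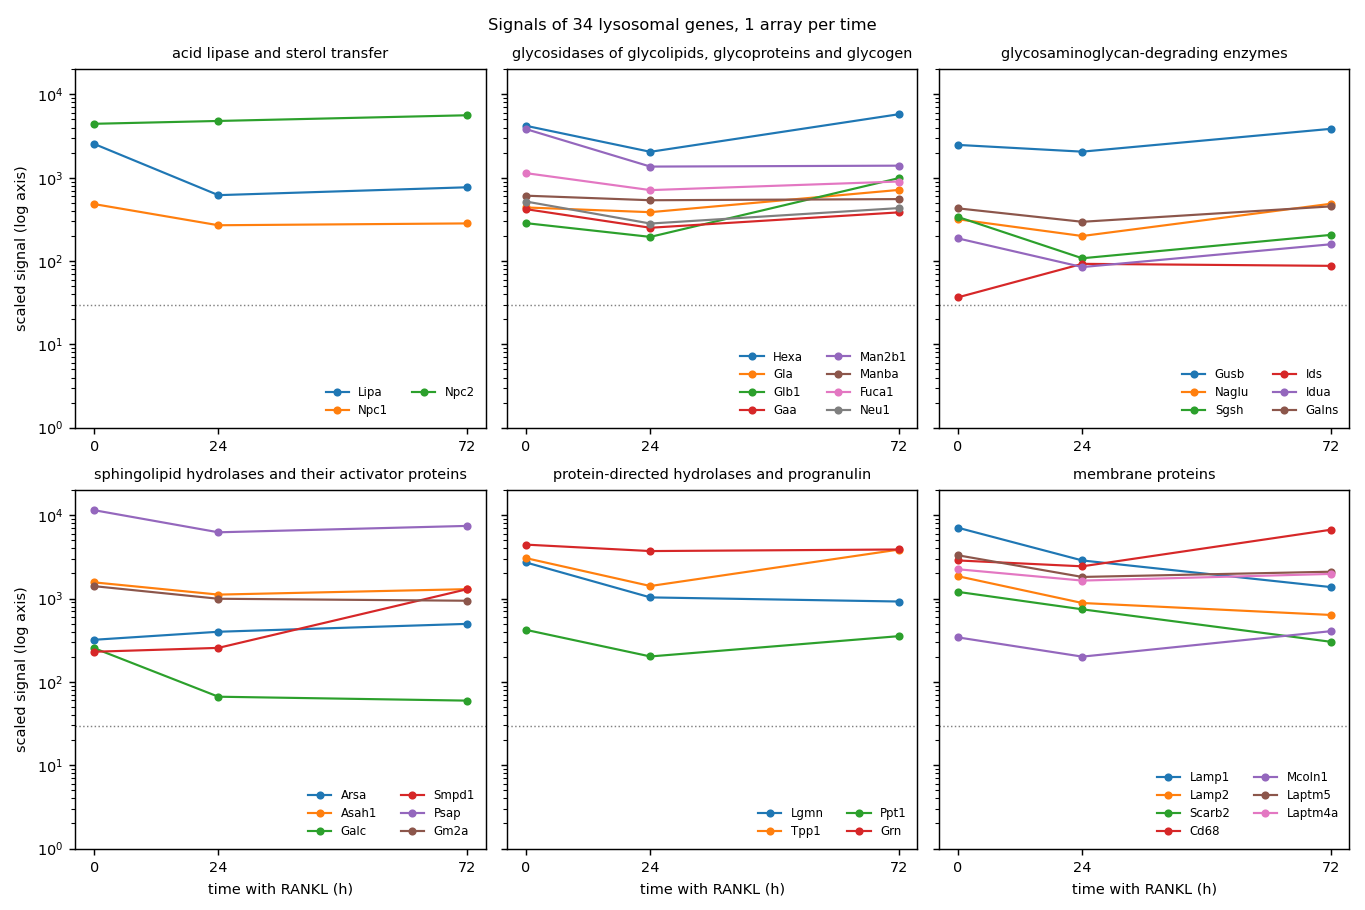
Scaled signals (log axis) of the 34 lysosomal genes against hours with RANKL, in 6 panels by role, with 1 line per gene, 1 array per time and no error bars because there were no replicates; the dotted line is the floor of 29.6. Most lines have their lowest point at 24 h (24 of 34 genes; 13 of 33 on the deposited scale), while Lamp1, Lamp2 and Scarb2 go down to 72 h. The lines of 12 genes, among them Smpd1, Glb1 and Cd68, have their highest point at 72 h.

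**Figure D2:**
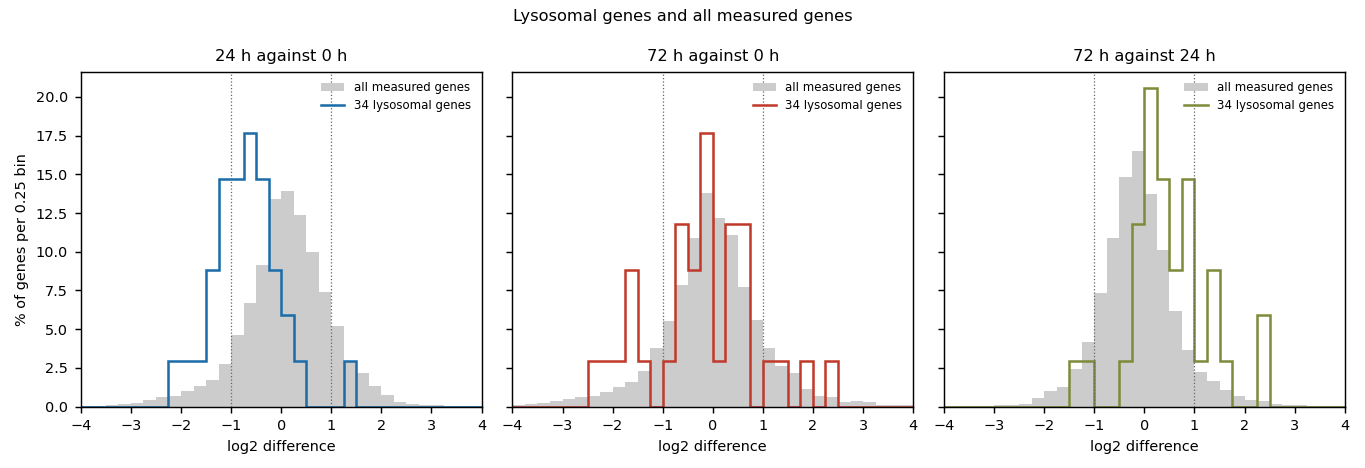
Share of genes per 0.25-wide bin of the log2 difference, for all measured genes (grey) and the 34 lysosomal genes (line), in the 3 comparisons; dotted lines mark 2-fold. Relative to the array medians, the lysosomal genes lie to the left of the others at 24 h against 0 h (median -0.72 against 0.12; 0.01 against 0.78 on the deposited scale) and to the right at 72 h against 24 h (0.31 against -0.14).

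The membrane proteins went in both directions. Relative to 0 h, 3 of 7 were lower and 1 higher at 72 h, against 12.8% and 12.5% of all genes, with a median of -0.65. On the deposited scale 2 were lower and 2 higher, against 5.33% and 35% of all genes. The median was 0.12 there, against 0.68 over all genes. Lamp1, the most used marker of the lysosomal membrane, had signals of 7078 at 0 h, 2868 at 24 h and 1374 at 72 h. It was thus highest at 0 h and dropped at each step, 2.47-fold by 24 h and 5.15-fold by 72 h. Lamp2, its close relative with a role in autophagy, stood at 1855, 885 and 636, or 2.10-fold lower at 24 h and 2.92-fold lower at 72 h, and its 24 h call was lost with hybridization controls (-0.99). Scarb2, the receptor that carries glucocerebrosidase to lysosomes, was measured at 1203, 743 and 303. Most of its drop fell after 24 h, since it was within 2-fold at 24 h (1.62-fold) and 2.45-fold lower at 72 h than at 24 h. Lamp1, Lamp2 and Scarb2 were the 3 members whose 72 h signal lay below both other arrays by more than the technical error, a pattern seen in 16.2% of all genes. For Lamp2 this holds for the probe set used, and its other 3 differed by 0.07, -0.28 and 0.25 between 72 and 24 h, inside that error.

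Cd68, a mucin-like membrane protein of macrophages and osteoclasts, went the other way. Its signals were 2868, 2438 and 6699, so it was within the technical error at 24 h (1.18-fold) and was 2.34-fold higher at 72 h than at 0 h. The cation channel Mcoln1, which lets calcium out of lysosomes, gave 342, 201 and 406, a 1.70-fold drop followed by a 2.03-fold gain. That gain did not reach 2-fold with scaling to hybridization controls. Laptm5, a lysosomal protein of blood cells, and the related Laptm4a stayed within 2-fold in all comparisons. Laptm5 had signals of 3306, 1818 and 2101, and Laptm4a of 2248, 1644 and 1976.

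Of 3 genes for neutral lipids and sterols, 1 was lower after RANKL and the others stayed within 2-fold. The share of all genes that were lower was 9.22% at 24 h and 12.8% at 72 h. Lipa, which splits cholesteryl esters and triglycerides, fell from 2546 at 0 h to 618 at 24 h and was 768 at 72 h. Both later arrays were far below the 0 h array, by 4.12-fold and 3.32-fold. Npc1, the membrane protein that passes cholesterol out of lysosomes, had signals of 483, 269 and 283 and stayed within 2-fold (1.80-fold and 1.70-fold lower). Its soluble partner Npc2 stood at 4439.6, 4803 and 5620.0, with differences of 0.11 and 0.34 from 0 h that lie inside the technical error. Its sign at 24 h was not settled, at -0.10 after quantile normalization and -0.08 with trimmed mean scaling.

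Glycosidases cut sugars from glycolipids, glycoproteins and glycogen. All 8 lay below their 0 h signal at 24 h relative to the median. Of these, 2 were at least 2-fold lower, against 9.22% of all genes. Their median of -0.71 was 0.02 on the deposited scale, where 0 were at least 2-fold lower, against 3.71% of all genes. Hexa, the alpha subunit of beta-hexosaminidase, had signals of 4198, 2047 and 5784. It was 2.05-fold lower at 24 h, a call lost with hybridization control scaling and on the deposited scale, and then 2.83-fold higher at 72 h than at 24 h. Glb1, the beta-galactosidase, had 285, 195 and 989, with the 72 h array far above the others. Its 72 h signal was 3.47-fold that of 0 h and 5.08-fold that of 24 h. Gla, alpha-galactosidase A, followed the same course on a smaller scale with 439.7, 386 and 714.

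Man2b1, the lysosomal alpha-mannosidase, stayed low. Its signals were 3832, 1361 and 1396, or 2.82-fold and 2.74-fold under 0 h, with no difference between the later arrays beyond the technical error (0.04). The beta-mannosidase Manba acts on the next bond of the same sugar chains and stood at 609, 537 and 554, with all differences inside the technical error. The glycogen-splitting Gaa had 419.7, 251 and 384, the fucosidase Fuca1 1135, 710.4 and 901, and the sialidase Neu1 518, 282 and 432. All were lowest at 24 h relative to the median. The gain from 24 to 72 h was 0.62 in Gaa and Neu1, beyond the technical error. In Fuca1 it was 0.34, inside that error, while its other probe sets gave 0.79 and 0.39. The second probe set of Gaa differed by -0.29 at 24 h and -0.01 between 72 and 24 h, both inside the error. None of these 3 genes reached 2-fold.

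Enzymes that take apart glycosaminoglycans, the sulfated sugar chains of the extracellular matrix, differed among themselves at 24 h. Of 6 measured genes 2 were lower and 1 higher at 24 h, against 9.22% and 13.2% of all genes. The median was -0.60, and 0.13 on the deposited scale. At 72 h against 0 h 1 was higher and 0 lower (median 0.35), against 12.5% and 12.8% of all genes. On the deposited scale 3 were higher and 0 lower at 72 h, against 35% and 5.33% of all genes. The median was 1.12 there, against 0.68 over all genes. Sgsh, which removes sulfate from heparan, was 338, 108 and 206, a 3.12-fold drop with a partial return. Idua, which cuts iduronic acid, showed 187, 84.7 and 159, so it was 2.21-fold lower at 24 h and within 1.18-fold of its start at 72 h. The Idua call was lost with probe sets averaged. Naglu, another heparan enzyme, had 317, 199.8 and 487 and was 2.44-fold higher at 72 h than at 24 h. Gusb, the beta-glucuronidase, stood at 2477, 2056 and 3862, and Galns, which removes sulfate from keratan and chondroitin, at 429, 296 and 453. Neither reached 2-fold in any comparison. Ids, the iduronate sulfatase, was the exception at 24 h, going from 36.7 near the floor to 92.6 and 87.6, or 2.52-fold and 2.39-fold above 0 h. With the floor at the 60th percentile its 24 h difference was 0.00.

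Sphingolipid breakdown held both the gene with the highest and a gene with one of the lowest 72 h differences in the list. Smpd1, acid sphingomyelinase, measured 230.0, 256 and 1294. Its gain came after 24 h and put the 72 h array 5.62-fold above 0 h and 5.05-fold above 24 h. Galc, which splits galactosylceramide, had 254, 66.4 and 59.6, and was 3.83-fold lower at 24 h and 4.26-fold lower at 72 h. Asah1, acid ceramidase, stayed within 2-fold at 1565, 1116 and 1297. Arsa, which removes sulfate from sulfatide, stood at 320.2, 399.8 and 497, with differences under 2-fold. Psap is the precursor of the saposins, which help these enzymes reach their lipids, and it gave 11507, 6243 and 7449. Gm2a, the cofactor that presents gangliosides to hexosaminidase, had 1409, 995 and 942. Of these helper proteins neither reached 2-fold, and the 6 genes had a median of -0.49 at 24 h that was 0.23 on the deposited scale.

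Of 4 genes that act on or with proteins, 3 were lower at 24 h (median -1.08), against 9.22% of all genes. None of these 3 was at least 2-fold lower on the deposited scale (median -0.36), where 3.71% of all genes were. Lgmn, the asparaginyl endopeptidase that activates other lysosomal proteases, had signals of 2712, 1033 and 922. It was 2.63-fold lower at 24 h and 2.94-fold lower at 72 h, so the later arrays lay close together. Tpp1, tripeptidyl peptidase, was 3056, 1415 and 3873, a 2.16-fold drop and then a 2.74-fold gain that ended above its start by a difference of 0.34, inside the technical error. Ppt1, which strips palmitate from proteins, went 421, 202 and 354, 2.08-fold down and 1.75-fold up, and its second probe set was 4.43-fold down and 2.73-fold up. Its 24 h call was lost with hybridization control scaling and on the deposited scale. Grn, progranulin, depends on the probe set. The one used gave 4440.4, 3717 and 3883, with all differences inside the technical error. The other 2 were 2.42-fold and 1.74-fold lower at 24 h, and 1.72-fold and 1.45-fold higher at 72 h than at 24 h, all beyond it. Lgmn and Tpp1 were alike at 24 h, and the difference between 72 and 24 h was -0.16 in Lgmn and 1.45 in Tpp1.

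**Figure D3:**
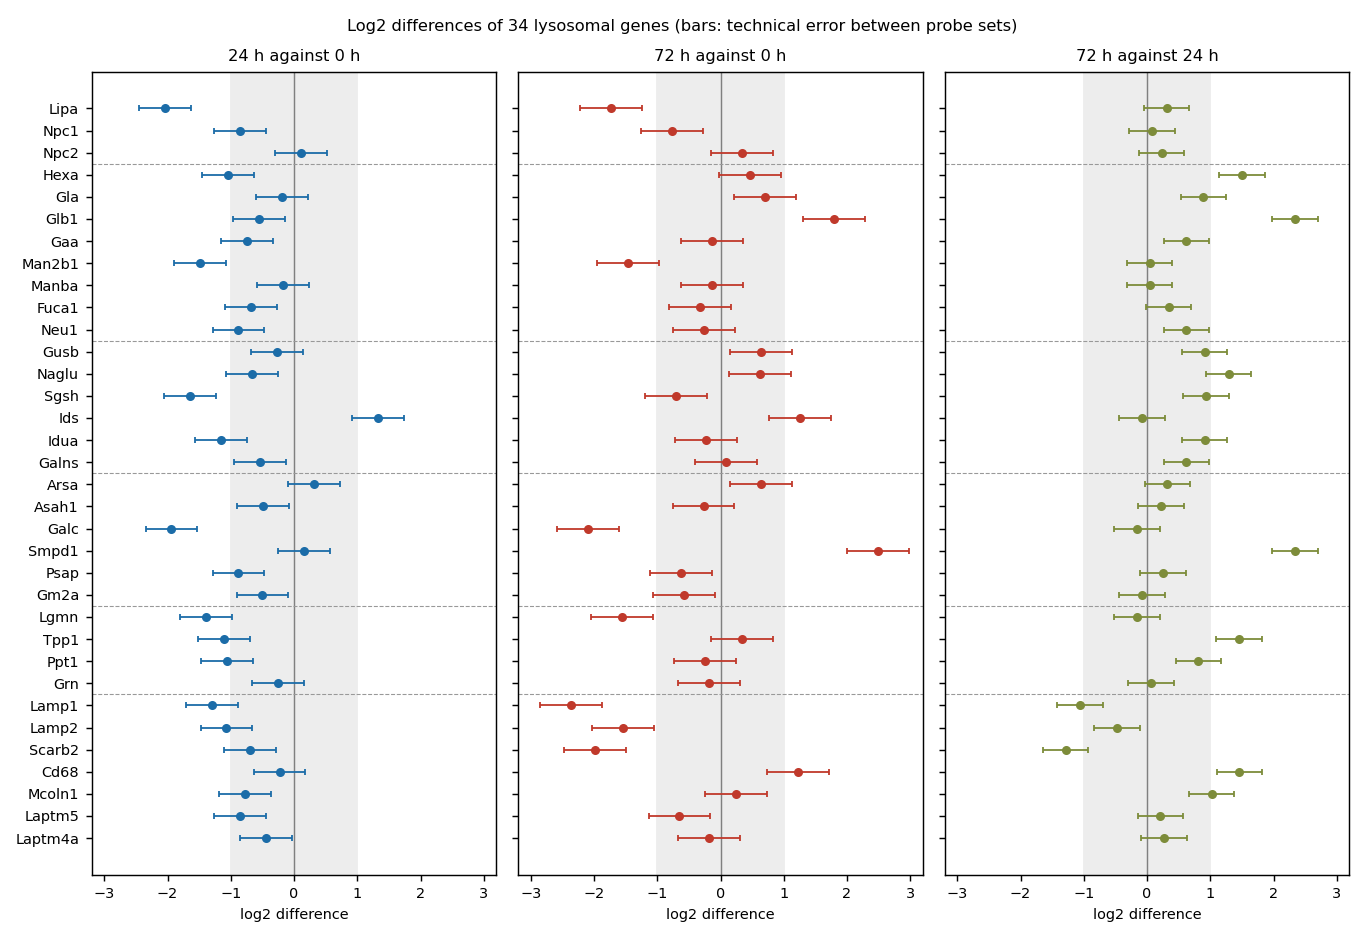
Log2 differences of the 34 lysosomal genes in the 3 comparisons, 1 point per gene with bars of 1 technical error (0.41, 0.49 and 0.36), where the shaded band is within 2-fold and dashed lines separate the roles. Relative to the array medians 11 points lie left of the band at 24 h against 0 h (2 on the deposited scale), and Smpd1, Glb1, Ids and Cd68 lie right of it at 72 h against 0 h.

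The order of the 3 arrays sorted the genes into 5 sets. Lowest at 24 h and highest at 0 h were 15 genes, among them Lipa, Man2b1, Sgsh, Idua and Ppt1 (10.9% of all genes had this order). Another 9 genes, Hexa, Gla, Glb1, Gusb, Naglu, Galns, Tpp1, Cd68 and Mcoln1, were lowest at 24 h and highest at 72 h (9.38% of all genes). The order from 0 h down to 72 h was that of 6 genes, Galc, Gm2a, Lgmn, Lamp1, Lamp2 and Scarb2 (20.4%). Npc2, Arsa and Smpd1 went up in order (18.3%), and Ids was lowest at 0 h and highest at 24 h (21.8%). The remaining order, lowest at 72 h and highest at 24 h, was that of 0 members and of 19.2% of all genes. On the deposited scale these orders differ, as given above for the lowest array. No pair of arrays differed beyond the technical error in Npc2 and Manba, nor in Grn by the probe set used, and the order of the 24 h and 72 h arrays is within it in others, such as Lipa, Npc1, Man2b1, Galc, Gm2a and Lgmn. The order of the 0 h and 72 h arrays separates the sets of 15 and 9 genes. Among the 9 it was inside the error of 0.49 in Hexa (0.46), Galns (0.08), Tpp1 (0.34) and Mcoln1 (0.25). Among the 15 it was so in several, such as Gaa (-0.13), Neu1 (-0.26), Idua (-0.23) and Ppt1 (-0.25).

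Where a gene had several probe sets, most of them had the same sign. Of 18 genes with at least 2 probe sets above the floor on all arrays, 17 had all their probe sets on the same side of 0 at 24 h against 0 h, 15 at 72 h against 0 h and 14 at 72 h against 24 h. The median gap between the probe sets of a gene was 0.45, 0.58 and 0.30. The 3 probe sets of Lipa were 4.12-fold, 5.43-fold and 5.09-fold lower at 24 h. Both probe sets of Scarb2 were lower at 72 h, with differences of -1.99 and -1.80, and those of Tpp1 agreed within 0.15 in each comparison. The 4 probe sets of Lamp2 all lay below 0 at 72 h against 0 h, from -0.66 to -2.38, and this gap of 1.72 was the widest. Man2b1 was 2.74-fold lower at 72 h by the probe set used and 6.86-fold lower by its other one.

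A few genes depend on the probe set chosen. The second probe set of Gusb went from 334 at 0 h to 683 and 1457, 4.36-fold higher at 72 h, where the one used was 1.56-fold higher. Gm2a had a difference of -0.58 at 72 h against 0 h by the probe set used and 0.93 by its other one, and Fuca1 and Idua likewise had probe sets on both sides of 0. For Galc, the second probe set was 2.39-fold lower at 24 h but 1.43-fold lower at 72 h. Mcoln1 was 1.07 on the log2 scale above 0 h at 72 h by its second probe set and 0.25 by the one used. Of the 5 probe sets of Ids only the one used was above the floor on all arrays. Lamp1, Hexa and Smpd1 were each measured by 1 probe set of a type that can match several transcripts.

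**Figure D4:**
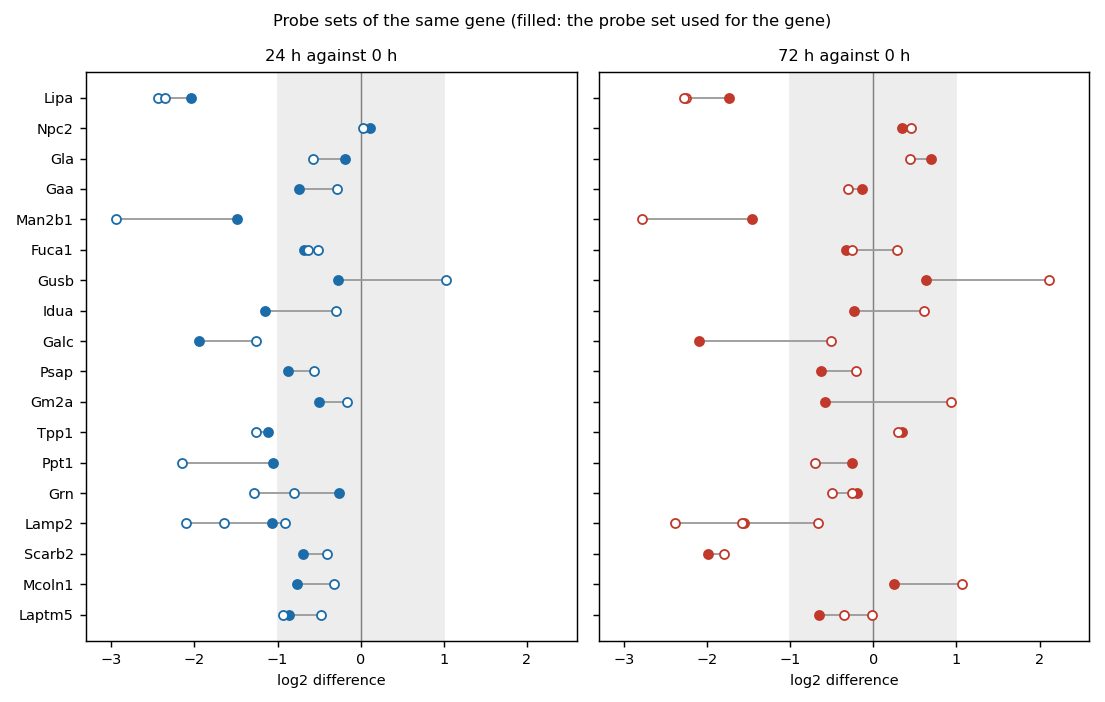
Log2 differences of each probe set for the 18 lysosomal genes with at least 2 probe sets above the floor on all arrays, with the probe set used filled, the others open and the shaded band within 2-fold. The probe sets of 17 genes lie on one side of 0 at 24 h against 0 h and those of 15 genes at 72 h against 0 h, with the widest gap in Lamp2 at 72 h.

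Genes with the TCACGTG letters printed above went both ways. By 72 h the holders ranged from Lamp1, with 4 matches and a difference of -2.37, to Glb1, with 1 match and a difference of 1.80. Their median difference at 24 h was -0.74, and that of the 22 members with a promoter and no match was -0.78. At 72 h against 0 h the medians were 0.25 and -0.24, and at 72 h against 24 h 0.89 and 0.26. Among all 488 measured genes with the motif the last median was -0.14, and -0.16 among those without it. Of the 9, Glb1, Naglu and Mcoln1 were at least 2-fold higher at 72 h than at 24 h, and Lamp1 was lower. Of the 22 without a match 4 were higher and 1 lower, and of all genes with the motif 5.53% and 8.20%. The Mcoln1 call was lost with hybridization controls and the Lamp1 call with trimmed mean scaling. Gla, with 2 matches, was 1.85-fold higher at 72 h than at 24 h. Smpd1 had no TCACGTG in its window.

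**Figure D5:**
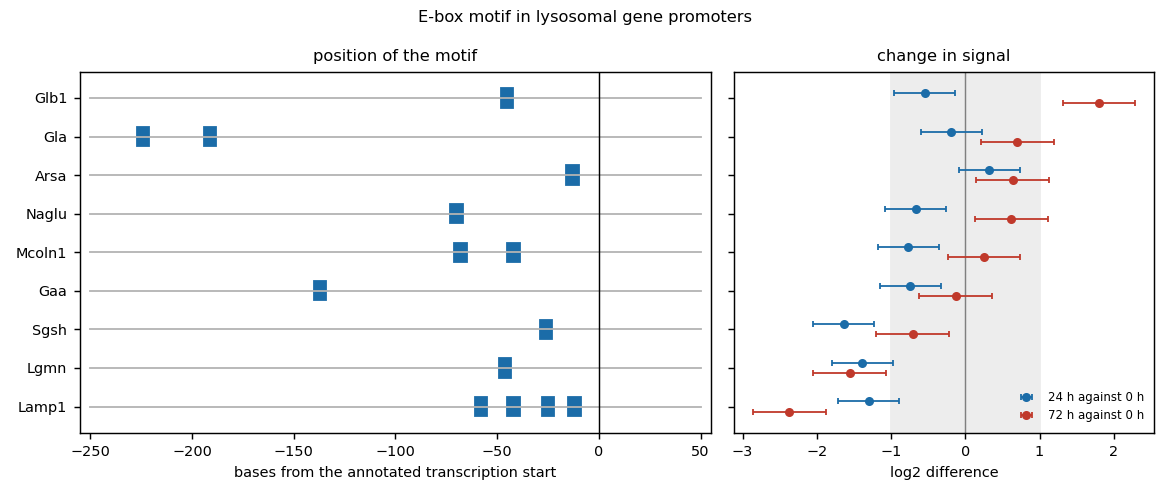
Left, position of each CACGTG match (blue) in the 300-base promoter stretch of 9 lysosomal genes, in bases from the annotated transcription start; right, log2 difference of the same genes at 24 h and 72 h against 0 h with bars of 1 technical error, and a shaded band within 2-fold. Genes are sorted by their 72 h difference, from Lamp1 with 4 matches (-2.37) to Glb1 with 1 (1.80).

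A second list held lysosomal genes other than these. Of 30 on the array, 7 were at least 2-fold lower and 4 higher at 24 h, against 9.22% and 13.2% of all genes. The median was -0.40, and 0.33 on the deposited scale. At 72 h against 0 h 6 of 29 were lower and 7 higher, against 12.8% and 12.5% of all genes. The median was -0.04, and 0.73 on the deposited scale. This list shares Ctsa with the cathepsins and Tcirg1 with the V-ATPase subunits. Clcn7, the chloride-proton exchanger of lysosomes and the ruffled border, had signals of 161, 158 and 1031 and was 6.42-fold higher at 72 h. Slc11a1, a metal transporter of phagosomes, had 2243, 505 and 315, and the phospholipase Pla2g15 had 1024, 273 and 248. The cathepsins, the main lysosomal proteases, were lower in 5 of 11 and higher in 1 at 24 h, Ctsk being the higher one, against 9.22% and 13.2% of all genes. The lower cathepsins numbered 1 on the deposited scale (median -0.23, against -0.96) and 3 with hybridization controls. Of all genes 3.71% and 8.34% were lower under these scalings. V-ATPase subunits, which acidify lysosomes, were higher in 11 of 15 and lower in 1 at 72 h against 0 h, against 12.5% and 12.8% of all genes. Their median was 1.56, against -0.01 over all genes. On the deposited scale 14 were higher and 1 lower, with a median of 2.33 against 0.68 over all genes.

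Genes that deliver enzymes to lysosomes formed another list. Of 20 on the array, 2 were higher and 2 lower at 24 h, or 10.0% each way, against 13.2% and 9.22% of all genes. At 72 h against 0 h 3 were higher and 3 lower, or 15.0% each way, against 12.5% and 12.8% of all genes. On the deposited scale 6 were higher and 1 lower at 72 h, against 35% and 5.33% of all genes. Gnptab, part of the enzyme that starts the mannose phosphate tag, had 226, 788 and 1971 and was 8.74-fold higher at 72 h. Igf2r, the large receptor for that tag, went 109, 194 and 352, 3.21-fold higher, and the adaptor Gga2 was 2.33-fold higher. Sort1, sortilin, a receptor that can carry enzymes without the tag, had 523, 108 and 57.0 and was 9.18-fold lower. The list's median at 72 h was 0.02, and it was 0.79 on the deposited scale, where that of all genes was 0.68. It was -0.14 after quantile normalization, -0.11 with trimmed mean scaling and -0.03 with hybridization controls.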

How the data were processed

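The authors deposited probe set intensities, linear and not log-transformed, which MAS5 produced per the submitters' processing notes (no version is given). Per the labels, cRNA was made from 5 µg of total RNA. The table held 22690 probe sets, 64 of them controls. Names came from the platform annotation, which gave 1 symbol for 20380 probe sets and several for 691, and 20351 matched a reference gene by identifier.

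The log2 signals of each array were centred on the median of 22626 gene probe sets, then returned to a shared linear scale by adding the mean of the 3 medians. Values under the 40th percentile were set to it before differences were taken. The technical error is the SD over genes (2727, 2702 and 2785 in the 3 comparisons) of the gap between the log2 differences of a gene's 2 brightest probe sets, divided by the square root of 2. The members, lists, roles and scaling were chosen with earlier results of these data known. Every member is named; genes of related lists are limited to the 3 largest changes each way in each comparison. The alternatives were 4 other scalings, 3 other floors, 2 other choices of probe set and fold thresholds of 1.5 and 3. Scripts ran in Python 3.11.15 with numpy 2.4.6 and pandas 2.3.3 and were tested on simulated data.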

Additional observations from a re-analysis of the deposited data

How the results depend on the processing

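No paired analysis was possible because each time had 1 array. On the deposited scale the median difference of the 34 genes was 0.01 at 24 h and 0.56 at 72 h against 0 h, opposite in sign to the main values, with 2 genes higher and 2 lower at 24 h (39.0% and 3.71% of all genes), 12 higher and 3 lower at 72 h (35% and 5.33%), and 13 of 33 lowest at 24 h (7.72%). The single gene higher at 24 h, Ids, was lost (0 genes) with a 60th-percentile floor and at 3-fold. After averaging probe sets Ids was not measured, which left 0 genes higher of 33. At 1.5-fold the lower genes at 24 h numbered 20 (17.8% of all genes), those at 72 h against 0 h 8 higher and 11 lower (23.2% and 23.3%), and those higher at 72 h against 24 h 15 (14.2%). At 3-fold the counts were 3 lower at 24 h (4.28%), 2 higher and 4 lower at 72 h against 0 h (5.39% and 5.97%), and 2 higher and 0 lower at 72 h against 24 h (2.68% and 2.84%). Without multi-transcript probe sets 27 genes could be measured, with 4 higher and 1 lower at 72 h against 24 h, and with trimmed mean scaling 1 was lower, Lamp1 no longer reaching 2-fold. Outside the deposited scale the median at 24 h ranged from -0.93 to -0.64. The calls kept under all scalings, floors and probe set choices that could be run were 2 of 12 at 24 h (Lipa and Galc), 7 of 11 at 72 h against 0 h and 7 of 9 at 72 h against 24 h. No called difference of a single gene changed sign under any alternative. The signal of Ids at 0 h, 36.7, lay close to the floor of 29.6.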

Other observations

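Regulators that sense lysosomal content and act on lysosomal genes had their own courses. Mitf, a MiT family factor, had signals of 485 at 0 h, 1808 at 24 h and 593 at 72 h, so it was 3.73-fold higher at 24 h, the time at which 24 of the 34 lysosomal genes were lowest (13 of 33 on the deposited scale). Tfeb, the family member best known for lysosomal genes, stayed within 2-fold at 147, 121 and 87.5. Flcn, folliculin, which acts on these factors through the Rag GTPases, was 525, 226 and 195, 2.32-fold lower at 24 h and 2.69-fold lower at 72 h, and within 2-fold on the deposited scale (-0.48 and -0.65). Mcoln2, a relative of the channel gene Mcoln1, had 216, 30.5 and 60.6 and was 7.06-fold lower at 24 h, just above the floor. Of 11 measured genes of this list 1 was higher and 2 lower at 24 h, against 13.2% and 9.22% of all genes. On the deposited scale 2 were higher and 1 lower, against 39.0% and 3.71% of all genes. Whether any of these bears on the lysosomal signals was not tested.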
